A study of Mus musculus with 24 samples.

Results

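The comparison described here is the colon of curcumin-fed mice 7 days after an enema of trinitrobenzene sulfonic acid (TNBS) against the colon of curcumin-fed mice that had a control enema. It rests on the 12 arrays whose labels give the curcumin diet, of the 24 arrays of the series. Of these, 3 TNBS arrays and 3 control arrays are of the Affymetrix 430A type and 3 and 3 are of the 430B type. Both groups were BALB/c mice, an inbred strain, 6 to 8 weeks of age, on a diet with 2% curcumin. Both had started that diet 2 days ahead of the enema on day 0, so the controls carry the diet too. The protocol mentions wild-type littermates and names no other genotype. The other 12 arrays, used here only for comparison, come from mice on a standard diet with either enema. Each RNA sample was pooled from 3 mice, and the labels leave unsaid if a group's 3 samples are 3 pools or repeats of 1, so the errors and p-values measure only the spread between these samples, which may be technical.

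TNBS is a hapten: given into the colon with ethanol, it breaks the epithelial barrier and couples to tissue proteins, and the colon is then infiltrated by neutrophils, macrophages and T cells. Curcumin is a polyphenol of turmeric that is widely studied as an inhibitor of NF-kappa B, the transcription factor behind many cytokine and acute phase genes. Lipocalin 2, serum amyloid A, the calgranulins S100a8 and S100a9 and the Reg3 lectins are widely used readouts of an inflamed colon. The series asks what dietary curcumin does to colonic gene expression in this colitis, and the present contrast gives the enema response that was left on day 7 on the curcumin diet.

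Values are the deposited signals, on a linear intensity scale. A difference is the mean of log2(signal + 16) over the 3 TNBS arrays minus that over the 3 control arrays, so negative values are lower with TNBS, and it is given with its standard error. Each test is limma's moderated test over the 12 arrays of an array type, two-sided, with p-values adjusted by the Benjamini-Hochberg method over all probe sets of that type. A probe set is called where the adjusted p is under 0.05. At gene level, each gene is the brightest of its probe sets. Samples are written in the order of replicates 1, 2 and 3, which has no meaning of its own.

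The tissue looked like colon on every array. Carbonic anhydrase 1 (Car1) of surface colonocytes read 12632 to 19922 on the 6 curcumin-diet 430A arrays, the goblet cell peptide Tff3 10286 to 13752, and villin (Vil1) 3119 to 3889. The first principal component of 430A, with 39.7% of the variance, split the arrays into 2 array sets that cross the groups, with 2 control arrays and 1 TNBS array in the first and 1 and 2 in the second. Within the curcumin-diet groups the 430A arrays correlated at 0.941 on average and between these groups at 0.947. Both averages mix pairs from the same and from different array sets, in unequal shares. They therefore do not show how far apart the groups were. On 430B, TNBS replicates 2 and 3 stood apart from the other 10 arrays, correlating with them at 0.848 against 0.923 among those 10. For this reason 430A comes first, and several values from 430B are also given without those 2 arrays.

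On 430A, no gene passed the test. Of 22626 probe sets, 0 were called in either direction (0%), and the smallest adjusted p was 1.00. At an unadjusted p under 0.05, 279 probe sets were higher with TNBS and 308 lower, 2.59% of those tested. Adding a term for the array set again gave 0 calls (1133 at an unadjusted p under 0.05, smallest adjusted p 0.837). The median standard error of a difference was 0.262 (0.211 with the array set). The count stayed at 0 in each of the 37 other settings tried on 430A. Among these, an adjusted p under 0.01 or a minimum of 1.5-fold could not have raised it. With array weights, 3980 probe sets had an unadjusted p under 0.05, and the smallest adjusted p was 0.114 (limma).

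The acute phase and neutrophil genes that mark an inflamed colon showed no rise with TNBS that passed the test, at signals far below those of TNBS on the standard diet. Lipocalin 2 (Lcn2), the siderophore-binding protein of inflamed epithelium and neutrophils, read 82.1, 101 and 710.1 in the controls and 135, 123 and 159 with TNBS. All 3 TNBS arrays were above control replicates 1 and 2, and control replicate 3 was far above the other 5 arrays. The difference was -0.40 ± 0.60, with a 95% interval of -1.70 to 0.91, and 0.52 ± 0.33 without that control. On the standard diet the same gene read 56.9, 114 and 72.8 in controls and 6003, 2957 and 5714 with TNBS, a rise of 5.63 ± 0.60 (limma, adjusted p = 0.0145).

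Serum amyloid A3 (Saa3), an acute phase protein made in the gut wall, read 372, 278 and 1209.6 in the curcumin-diet controls and 225, 462 and 393 with TNBS. The groups overlapped, again with control replicate 3 as the highest array. The difference of -0.52 ± 0.47 became 0.10 ± 0.36 without it. S100a8 and S100a9, the paired calcium-binding proteins of neutrophils, were dim. S100a8 read 52.0, 12.3 and 125 in the controls and 42.6, 30.4 and 212 with TNBS, a difference of 0.40 ± 0.70. S100a9 read 93.4, 16.9 and 147 and 16.8, 91.7 and 232, a difference of 0.19 ± 0.77. In both, TNBS replicate 3 was the highest array and the other 2 TNBS arrays were below the highest control. With TNBS on the standard diet, S100a8 read 2458, 1431 and 2989 and S100a9 1558, 1273 and 3459.9, and both had risen over the standard-diet controls (limma, adjusted p = 0.0384 for each).

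The Reg3 lectins, which bind bacteria at the epithelial surface, were well expressed in all 6 samples. Reg3b read 4779, 6194 and 10956 in the controls and 7774, 4049 and 3121 with TNBS, a difference of -0.57 ± 0.37. Reg3g read 874, 1173 and 2458 and 1522, 877 and 492, a difference of -0.64 ± 0.50. Both sets of 3 overlapped, with control replicate 3 highest and TNBS replicate 3 lowest. Timp1, an inhibitor of matrix metalloproteinases, read 237, 281 and 629 in controls and 194, 216 and 178 with TNBS. Its groups did not overlap, with a difference of -0.79 ± 0.39 that was -0.37 ± 0.36 without control replicate 3. The LPS-binding protein gene Lbp read 284, 376 and 512 and 261, 243 and 234. Its TNBS arrays were all below the controls, by -0.60 ± 0.21, and this too did not pass. A 430B probe set for Lbp gave 1.32 ± 0.61.

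Cytokines gave the same picture. Interleukin 1 beta (Il1b) read 326, 279 and 255 in the controls and 225, 286 and 430.1 with TNBS, a difference of 0.08 ± 0.27. Tnf read 316, 119 and 193 and 204, 289.5 and 252, a difference of 0.31 ± 0.34; in both genes the groups overlapped. Prostaglandin synthase 2 (Ptgs2, also known as Cox-2) read 247, 212 and 435 and 204, 187 and 203, with all TNBS arrays just under the lowest control, a difference of -0.49 ± 0.26. Il6, Ifng and Il10 were dim, with differences of -0.46 ± 0.32, -0.28 ± 0.35 and 0.01 ± 0.29, and Nos2, inducible nitric oxide synthase, read 37.1, 9.5 and 7.8 and 9.0, 10.7 and 12.3. None of these passed on 430A.

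**Figure D1:**
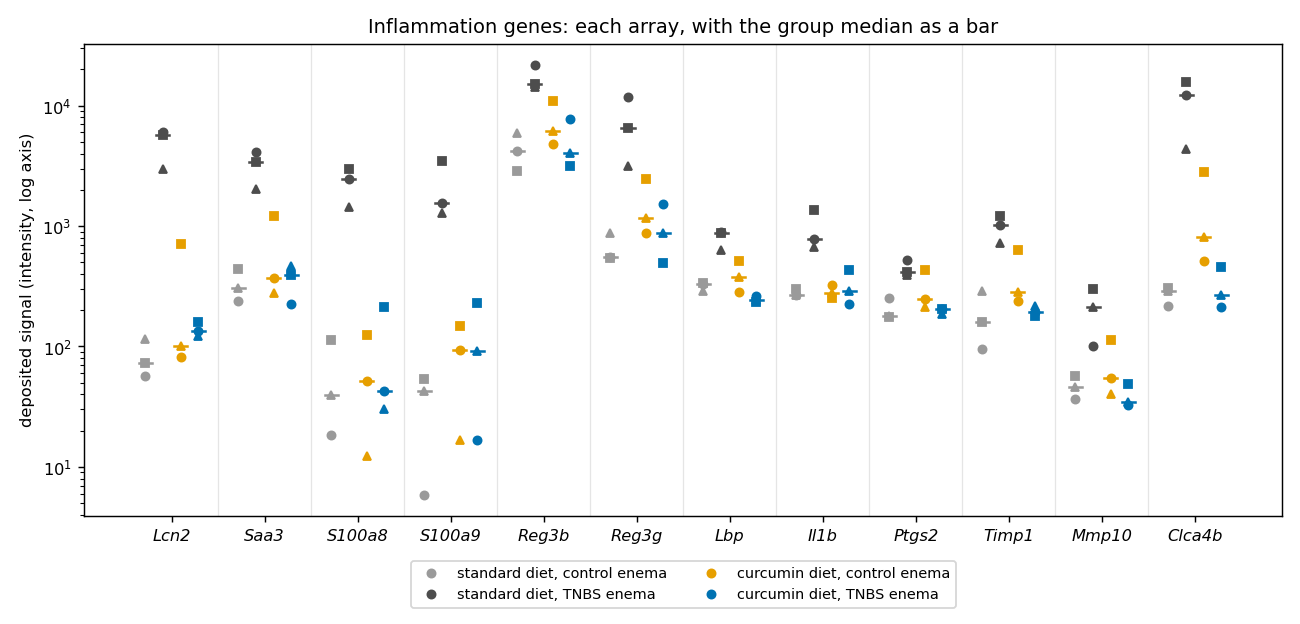
Deposited signal on a log axis for 12 inflammation genes, with 1 point per array (circle, triangle and square for replicates 1, 2 and 3), a bar at each group's median and a colour per diet and enema. Curcumin-diet TNBS arrays overlap their controls or lie below them, Lcn2 at 123 to 159, while the standard-diet TNBS arrays lie at 2957 to 6003 for Lcn2; Clca4b is from 430B and the other 11 genes from 430A.

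By gene list, the acute phase and antimicrobial genes had a median difference of -0.15 over 21 genes on 430A, 8 of them above 0 and 13 below, against -0.01 over all 12393 genes of 430A. The median on the standard diet was 1.28. Without control replicate 3 it was 0.10, and 10 of the 21 genes had their highest curcumin-diet signal on that array, against 12.9% of all genes. Among those, chosen after their values were seen, are Pla2g2a, a secreted antibacterial phospholipase, and the goblet cell product Retnlb. Pla2g2a read 1053, 1578 and 8279 in controls and 2479.7, 1972 and 1613 with TNBS, and Retnlb 1805, 2152 and 7159 and 4244, 3395 and 2309. For both genes control replicate 3 was the highest array and the TNBS arrays lay above the other 2 controls.

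The 27 cytokine and mediator genes had a median of -0.13 (0.37 on the standard diet), with 9 above 0 and 18 below. NF-kappa B signalling genes had a median of -0.08 over 22, and 1 was separated, downwards (4.55%, against 3.62% of all genes). That gene was Irak1, the kinase downstream of interleukin 1 and Toll-like receptors. It read 530.3, 607 and 673 in controls and 517, 489 and 390.3 with TNBS, a difference of -0.37 ± 0.15. Its 3 other 430A probe sets gave -2.004, -0.73 and 0.33. Neutrophil markers had a median of 0.08 over 15 genes, or -0.12 when the array set is fitted, and 0.82 on the standard diet. Of the 15 genes, 9 were above 0 and 6 below. Among those below, Csf3r, the receptor for the neutrophil growth factor G-CSF, differed by -1.04 ± 0.37 and myeloperoxidase (Mpo) by -0.57 ± 0.25. Matrix genes had a median of 0.05 over 33, or 0.21 without control replicate 3, and 0.62 on the standard diet. None of the listed genes on 430A was called in this comparison. The plot of list medians sets these values beside those of the standard diet.

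**Figure D2:**
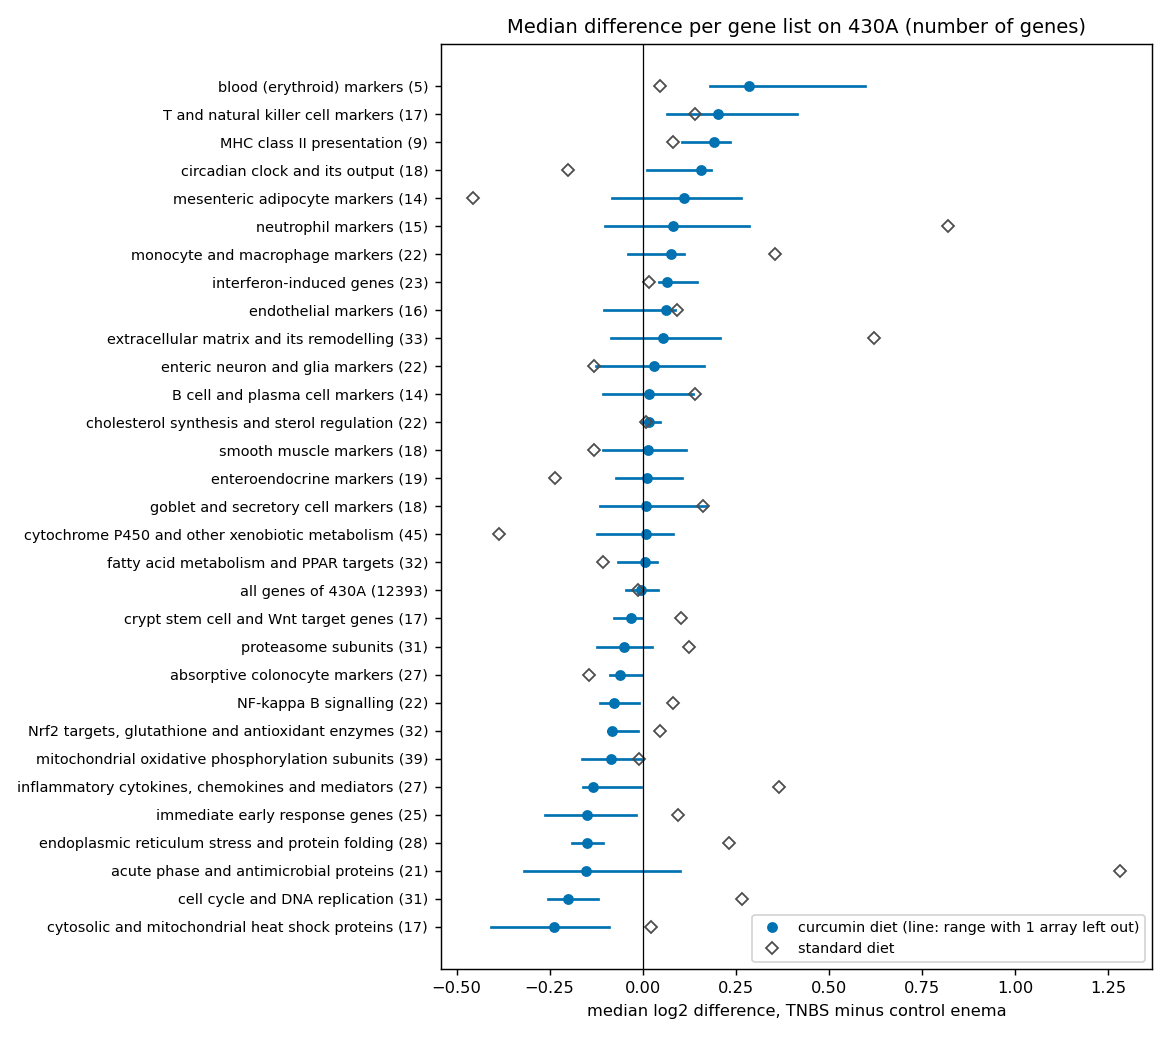
Median log2 difference, TNBS minus control enema, of each gene list on 430A (number of genes in brackets), for the curcumin diet (circle; the line spans the values with 1 of the 6 arrays left out) and the standard diet (diamond). On the curcumin diet the medians shown lie between -0.24 (heat shock proteins) and 0.29 (erythroid markers, 5 genes), and the acute phase list is at -0.15 against 1.28 on the standard diet; pancreas markers are left out.

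Whether the enema response differed between diets was tested as an interaction, the difference on curcumin minus the difference on the standard diet. On 430A it was called for 0 probe sets (0%), with 1857 at an unadjusted p under 0.05 and a smallest adjusted p of 0.192. For Lcn2 the interaction was -6.03 ± 0.85 (limma, adjusted p = 0.192), for Saa3 -3.72 ± 0.66 (adjusted p = 0.257) and for Timp1 -3.22 ± 0.55 (adjusted p = 0.257). This outcome depends on control replicate 3. Without that array, Lcn2 passed at -5.11 ± 0.44 (limma, adjusted p = 0.00421), as did Lrg1, a secreted leucine-rich glycoprotein induced in inflammation, at -4.61 ± 0.51 (adjusted p = 0.0221). When the array set was also fitted, 6 probe sets passed, for Lcn2, Lrg1, Saa3, Chil3, Pla2g2a and 1 probe set with no symbol; these genes are named because they passed there. Without control replicate 1 a single probe set passed, for Rgs5, a regulator of G protein signalling, at 1.43 ± 0.16 (adjusted p = 0.0439).

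On 430B, 4 probe sets passed the interaction test, all with a lower TNBS difference on curcumin (0.0178% of 22511), and 0 passed without the 2 arrays that stand apart. The largest was for Clca4b, a secreted protein of the Clca family made by gut epithelium. It read 510.1, 808 and 2830.0 in the curcumin-diet controls and 214, 269 and 459 with TNBS, so that all 3 TNBS arrays lay below the controls and control replicate 3 was the highest. On the standard diet it read 216, 291 and 304 in controls and 12340.0, 4324 and 15797 with TNBS. The interaction was -6.83 ± 0.77 (limma, adjusted p = 0.00663), and the difference on the curcumin diet alone, -1.77 ± 0.54, did not pass (adjusted p = 0.115).

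Rhbdf2, the inactive rhomboid protein that carries the Tnf-releasing protease Adam17 to the cell surface, passed as well. It read 587, 721 and 481 in the curcumin-diet controls and 253, 222 and 188 with TNBS, against 201, 283 and 363 and 759, 994 and 1146 on the standard diet. The groups did not overlap on either diet, and they stood in the opposite order. Its interaction was -3.10 ± 0.37 (limma, adjusted p = 0.00663), and its difference on curcumin was -1.36 ± 0.26, with -1.17 from TNBS replicate 1 alone. The difference within a diet did not pass on curcumin (limma, adjusted p = 0.0606) or on the standard diet (adjusted p = 0.0844). The other 2 were Casp9, at -3.78 ± 0.46 (adjusted p = 0.00663), and Tmem181a, at -2.27 ± 0.31 (adjusted p = 0.023). These 4 genes are named because the count is small.

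Genes of the endoplasmic reticulum (ER) stress response had mostly lower signals with TNBS, in differences that were small and did not pass the test. This response detects unfolded proteins in the ER: the sensors Atf6, Ire1 and Perk switch on chaperones, disulfide isomerases and components that return misfolded proteins to the cytosol, and secretory cells such as goblet and plasma cells depend on it. All 3 TNBS arrays lay below all 3 control arrays for 6 of the 28 listed genes, or 21.4%, against 3.62% of the 12393 genes of 430A, and above them for 0, against 3.22%. The median difference was -0.15, with 23 of 28 genes below 0. None of the 28 passed the test. The list was drawn up with earlier results of these data known.

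Many genes of this response share a promoter element, the ER stress response element, which NF-Y and Atf6 or Xbp1 bind. Its letters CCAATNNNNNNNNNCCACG, searched on both strands, stand in 39 of 32851 RefSeq promoter windows (0.119%) that run from 250 bases before to 50 bases after a transcription start. Of the 28 listed genes 25 have a window, and 9 of these hold the element. The stretches below, from build GRCm38.p6, are printed because they show that the element is found both in genes whose groups were separated and in genes whose groups overlapped. They run 5′ to 3′ on the gene's strand, all before the start, with the element in capitals in either orientation.
Creld2: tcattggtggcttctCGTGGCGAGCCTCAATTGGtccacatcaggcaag
Hsp90b1: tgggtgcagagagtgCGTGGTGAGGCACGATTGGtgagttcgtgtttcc
Syvn1: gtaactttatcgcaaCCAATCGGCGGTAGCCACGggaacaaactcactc
Hspa5: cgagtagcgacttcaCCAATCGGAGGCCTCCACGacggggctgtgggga
Canx: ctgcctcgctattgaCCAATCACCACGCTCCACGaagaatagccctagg
They lie at chr15:88819505-88819553 (plus strand) for Creld2, chr10:86705518-86705566 (minus) for Hsp90b1, chr19:6046517-6046565 (plus) for Syvn1, chr2:34772010-34772058 (plus) for Hspa5 and chr11:50325785-50325833 (minus) for Canx. Of the 5 genes with separated groups and a window, 3 hold the element (Creld2, Hsp90b1 and Syvn1), and of the other 20 with a window, 6 do. A match describes the letters only. Hsp90b1 holds 2 matches, of which the one nearer to the start is shown.

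Creld2, a small ER chaperone that leads this list, read 745, 758 and 981 in the controls and 515, 467 and 395 with TNBS. Its highest TNBS array was well below its lowest control, and the difference was -0.83 ± 0.20 (unadjusted p = 0.0013, limma adjusted p = 1.00). It was -0.70 ± 0.22 without control replicate 3. Within the array sets it was -0.72 and -0.77. The standard-diet samples, at 585, 434 and 446 with control enema and 719.6, 435 and 612 with TNBS, were all below the curcumin controls.

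Hyou1, the large Hsp70-like chaperone of the ER, read 1138, 937 and 1257 in the controls and 832, 779 and 918 with TNBS, a difference of -0.38 ± 0.12. On the standard diet its order was the reverse, 699, 755 and 731 with control enema and 1102, 997 and 1024 with TNBS. The interaction of -0.89 ± 0.17 did not pass (limma, adjusted p = 0.257). Hsp90b1, the ER form of Hsp90 also called Grp94, read 3267, 3363 and 3583 and 2766, 2736 and 2591, a difference of -0.33 ± 0.12, with a gap between the groups. Its second 430A probe set gave 0.02 ± 0.17, so the probe sets disagree. The 2 further Hyou1 probe sets gave -0.33 ± 0.20 and -0.29 ± 0.30.

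Syvn1, the ubiquitin ligase that tags misfolded ER proteins, read 1436, 1404 and 1489 in the controls and 1114, 1257 and 1224 with TNBS, a difference of -0.27 ± 0.10. Herpud1, its membrane partner, read 2952, 2006 and 2412 and 1939, 2005 and 1690.3, with the lowest control and the highest TNBS array almost level. Ddit3, the transcription factor Chop of prolonged ER stress, read 647, 823 and 648 and 414, 487 and 498, a difference of -0.58 ± 0.29. These 6 genes are the separated ones, and the next 3 were chosen because their promoters hold the element. Hspa5, the master chaperone BiP, read 7051, 9263 and 9412 and 6715, 7953 and 6712, a difference of -0.26 ± 0.17 with overlapping groups. Calr and Canx, the lectin chaperones of the ER, differed by -0.08 ± 0.12 and 0.02 ± 0.13.

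Control replicate 3 was the highest of the 6 arrays for 16 of the 28 ER stress genes, against 12.9% of all genes. Without it the median was -0.11, with 23 of 28 still below 0. Over the 6 arrays left out in turn the median ran from -0.19 to -0.11. A fit with an array set term gave -0.13, and inside the first and second sets the medians were -0.20 and -0.09. On the standard diet the list's median was 0.23. Pancreas acinar RNA, which is rich in ER chaperones, differed between samples: the summed signal of 20 acinar markers was 31121, 35174 and 111710 in the controls and 167190, 32398 and 55930 with TNBS. The highest sums were those of TNBS replicate 1 and control replicate 3. The part of acinar RNA in these differences was not tested.

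Cytosolic and mitochondrial heat shock genes had a median of -0.24 over 17, with 15 below 0. Of the 17, 3 were separated downwards (17.6%, against 3.62% of all genes), but this rested largely on 1 array. Control replicate 3 was highest for 14 of the 17. Without it the median was -0.09, with 11 below 0. The inducible chaperone Hspa1a read 239.6, 286 and 832 in controls and 192, 184 and 215 with TNBS, a difference of -0.92 ± 0.38 that was -0.39 ± 0.26 without that array. Stip1, which hands clients from Hsp70 to Hsp90, read 416, 462 and 604 and 373, 379 and 335, a difference of -0.42 ± 0.17. Dnajb1, the Hsp40 partner of inducible Hsp70, read 986, 858 and 1098 and 586, 749 and 875, and its groups overlapped only in that control replicate 2 was below TNBS replicate 3. What set control replicate 3 apart in these genes was not tested.

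**Figure D3:**
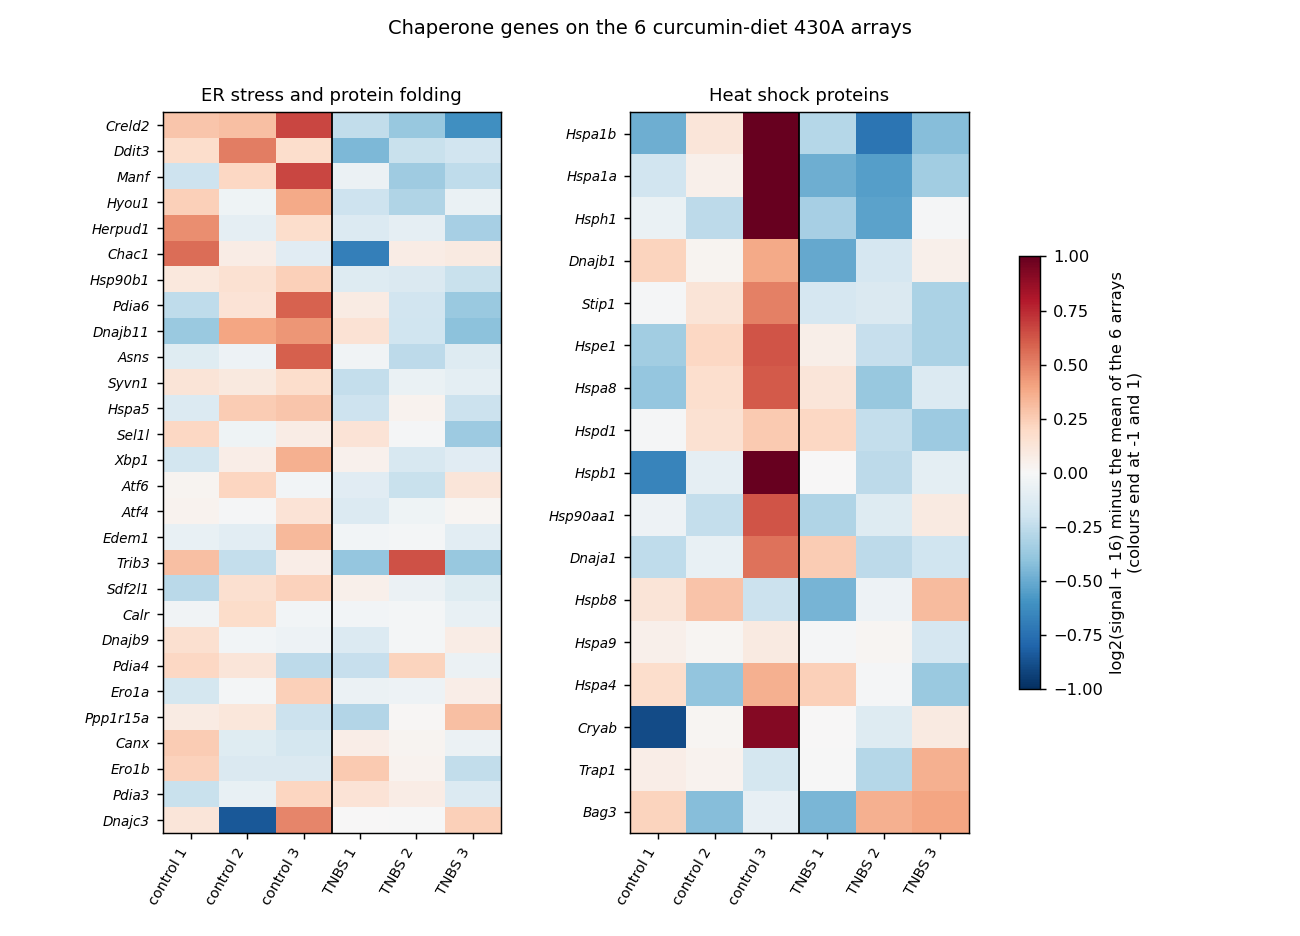
Colour map of the ER stress list (28 genes) and the heat shock list (17 genes) on the 6 curcumin-diet 430A arrays, as log2(signal + 16) minus the gene's mean over the 6, ordered by the difference between enemas. Red is above and blue below that mean. Control replicate 3 is highest for 16 of the ER stress genes and 14 of the heat shock genes.

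Across all of 430A, 399 of 12393 genes had every TNBS array above every control array (3.22%) and 449 had every one below (3.62%). The 12 with the smallest p in each direction and a mean signal over 200 in the higher group are given here as values, since none passed. Each gene is its brightest 430A probe set. For 13 of the 24 genes, 430A holds 26 further probe sets, of which 17 had the same direction and 9 the opposite one, and all 26 had a smaller difference. Among those lower with TNBS, Diras1, a small Ras-family GTPase, read 219, 233 and 215 in the controls and 94.5, 93.5 and 106 with TNBS, a difference of -1.06 ± 0.24. Its 2 other probe sets gave -0.37 ± 0.35 and 0.03 ± 0.31. The standard-diet arrays, at 122, 98.1 and 86.1 with control enema and 112, 82.0 and 113 with TNBS, were at the level of the curcumin TNBS arrays. The gene met the signal minimum only through the curcumin controls. Gnaq, the G protein alpha subunit that activates phospholipase C, read 204, 241 and 211 and 76.8, 126 and 96.9, a difference of -1.03 ± 0.25. Further Gnaq probe sets on 430B gave -0.70, -0.46, -0.35, -0.10 and -0.10. Another on 430B gave 1.795 ± 0.508, a larger difference the other way. Podxl, a sialomucin of vessels and epithelia, read 358, 363 and 335 and 205, 226 and 204, a difference of -0.69 ± 0.17.

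Itga5, the alpha chain of the fibronectin receptor, read 232, 328 and 345 in controls and 183, 189 and 145 with TNBS, and on the standard diet 248, 222 and 192 and 368, 395 and 352. The orders on the diets were opposite, and the interaction of -1.46 ± 0.29 did not pass (limma, adjusted p = 0.257). Atf3, a stress-induced transcription factor, read 518, 733 and 507 and 294, 384 and 71.7, a difference of -1.42 ± 0.44 that was -0.75 without TNBS replicate 3. Idh3a, a subunit of the citric acid cycle isocitrate dehydrogenase, was bright and tight, at 3062, 3288 and 3277 and 2610.1, 2289 and 2555, a difference of -0.37 ± 0.11. The nuclear pore protein Nup62 differed by -0.57 ± 0.14, the translation factor Eif5b by -0.54 ± 0.15, the transcriptional regulator Nacc1 by -1.23 ± 0.34 and the methyltransferase Mettl21a by -0.64 ± 0.15. Further 430A probe sets gave 0.32 and 0.16 for Mettl21a and -0.20 and 0.32 for Nacc1, so those genes' probe sets disagree. Creld2 and Hyou1, given above, complete the 12.

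On the higher side, the smallest p among these 24 genes belonged to Cd52, a short glycoprotein on the surface of lymphocytes and monocytes. It read 543, 407 and 439 in the controls and 816, 793 and 756 with TNBS, with a gap between the groups, and the difference was 0.76 ± 0.14 (unadjusted p = 0.000144, limma adjusted p = 1.00). Standard-diet samples read 759, 565 and 670.0 and 789, 808 and 853. Ptprc, the pan-leukocyte phosphatase CD45, read 675, 664 and 602 and 831, 831 and 1060.1, a difference of 0.47 ± 0.14, and the standard-diet arrays of both enemas, at 863, 727 and 981 and 884, 913 and 926, were all above the curcumin controls. AW112010, a transcript induced by interferon in leukocytes, read 2055, 2340.3 and 2514 and 2972, 2891 and 2879.7, a difference of 0.34 ± 0.10. In whole colon RNA, more cells of a type and more RNA per cell cannot be told apart.

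Among the 12 higher genes the largest difference was that of Itln1, intelectin 1, a lectin that binds microbial sugars. It read 45.7, 158 and 67.6 in controls and 744, 406 and 239 with TNBS, a difference of 2.17 ± 0.54. Its standard-diet samples read 999, 218 and 420.2 and 483, 731 and 415. Mptx1, mucosal pentraxin, read 2882, 2690.3 and 1994 and 4245, 5554 and 3816, a difference of 0.84 ± 0.26. On the standard diet, controls at 6180.2, 4979 and 5031 were above every curcumin control. Ang4, an antimicrobial ribonuclease of Paneth and goblet cells, is on 430B and not among the 24. It read 1962, 3177 and 1323 and 6482, 5165 and 2097, a difference of 1.02 ± 0.42 with overlapping groups, or 1.67 by TNBS replicate 1 alone.

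The remaining higher genes were Cpd, a Golgi carboxypeptidase, at 0.72 ± 0.19; the endocytic sorting nexin Snx9 at 0.87 ± 0.24; Sh3d19 at 0.41 ± 0.12; 2510009E07Rik at 0.43 ± 0.13; Sema4f at 1.91 ± 0.56; Atpaf2, an assembly factor of the mitochondrial ATP synthase, at 0.78 ± 0.24; and the mRNA decay factor Zfp36l1 at 0.53 ± 0.16. The 6 further Cpd probe sets gave -0.15 to 0.30. One further probe set each went the other way for Zfp36l1 (-0.13), Sh3d19 (-0.29) and, on 430B, Sema4f (-0.76). Sema4f met the signal minimum only through the curcumin TNBS group, whose mean was 256. Its means were 52.1 in the curcumin controls and, on the standard diet, 93.8 in controls and 125 with TNBS. Of the 24 genes, 16 had a curcumin TNBS mean nearer to the standard-diet control mean than the curcumin control mean was. The share was 60.5% over all 848 separated genes and 58.1% over all genes of 430A, so the separated genes were close to the background in this.

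**Figure D4:**
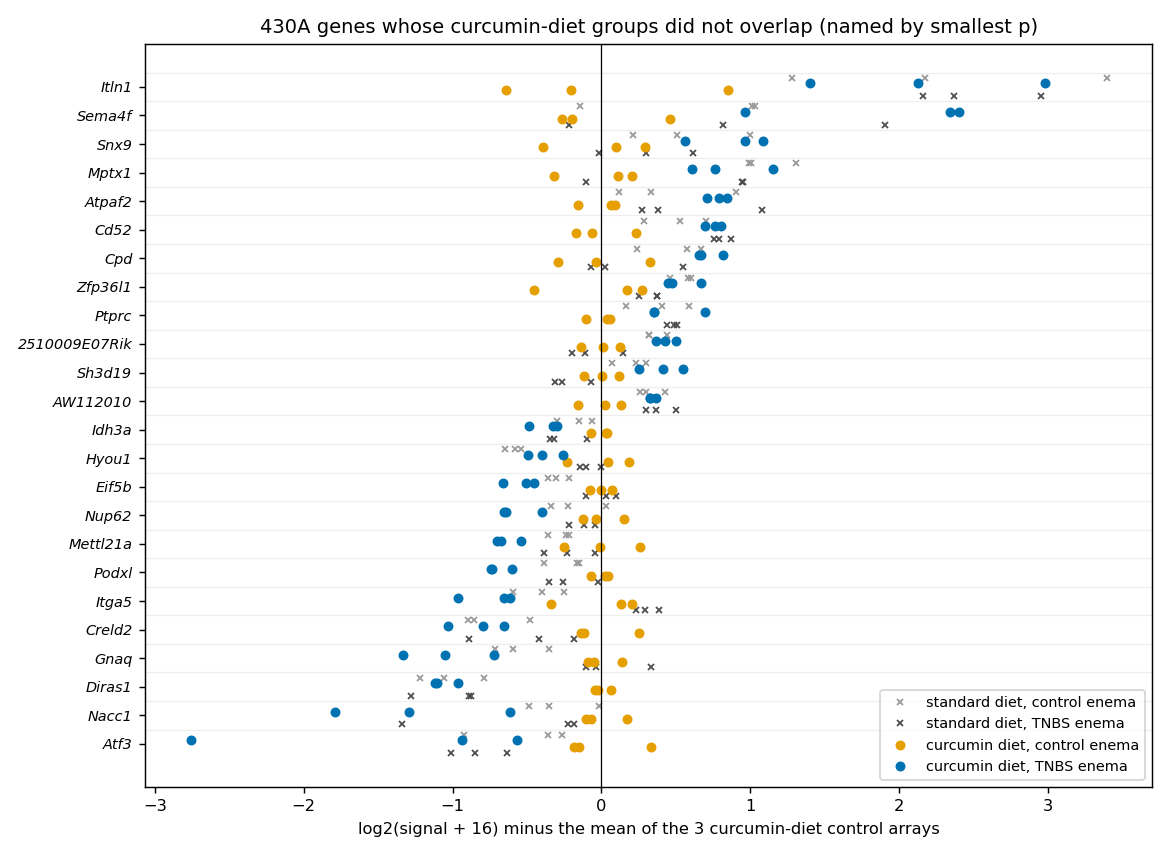
For 24 genes of 430A whose curcumin-diet groups did not overlap, log2(signal + 16) of each array minus the mean of the 3 curcumin-diet controls, with circles for the curcumin diet (orange control, blue TNBS) and crosses for the standard diet (light grey control, dark grey TNBS). Differences run from -1.42 for Atf3 to 2.17 for Itln1, and for Diras1 and Itln1 the standard-diet crosses lie near the blue points.

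Antigen presentation genes leaned the same way as Cd52. All 9 class II genes on 430A had a difference above 0, with a median of 0.19 that stayed between 0.10 and 0.23 with 1 array left out. Without control replicate 3, 7 of the 9 were above 0. Of the 9, 1 was separated, upwards (11.1%, against 3.22% of all genes). That gene, H2-Aa, a chain of the class II molecule I-A, read 3261, 4091 and 2639 in controls and 4448, 4449.7 and 4400.3 with TNBS, a difference of 0.43 ± 0.18. H2-Ab1, its partner chain, read 1149.8, 952 and 644 and 1633, 1252 and 1075, with overlapping groups. Of 22 macrophage markers 4 were separated upwards (18.2%, against 3.22% of all genes) and 0 downwards (against 3.62%). Their median of 0.07 was -0.04 without TNBS replicate 3 and 0.003 when the array set is fitted. Mpeg1, a pore-forming protein of phagocytes, read 163, 196 and 304 and 389, 310.4 and 327, a difference of 0.63 ± 0.31, and the growth factor receptor Csf1r read 1771, 1909.9 and 1901 and 2036, 1986 and 2439.8, a difference of 0.20 ± 0.11.

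Of the 17 T and natural killer cell genes, 9 were above 0 and 8 below. Their median was 0.20, but it ran from 0.07 to 0.41 with 1 array left out and was 0.05 when the array set is fitted. Cd3g, a chain of the T cell receptor complex, read 157, 108 and 114 in controls and 135, 220.4 and 223 with TNBS. Summed over the 15 neutrophil markers, the signal was 2120.0, 1876 and 2271 in controls and 1257, 1897 and 2398 with TNBS, against 7962 to 14946 with TNBS on the standard diet. Over the 22 macrophage markers it was 15879 to 16552 in the controls and 16227 to 19068 with TNBS. The 14 B and plasma cell genes on 430A had a median of 0.02. No gene of these leukocyte lists passed.

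Of 18 circadian genes, 11 had a difference above 0 and 7 below, and none passed the test. The circadian clock is a feedback loop of transcription factors whose output genes Dbp, Tef, Per3 and Nr1d2 cycle with the time of day. All 3 TNBS arrays were above all 3 controls for 5 of 18 genes (27.8%, against 3.22% of all genes), and below for 0 (against 3.62%). The median was 0.16, against -0.20 on the standard diet. This median was 0.01 without TNBS replicate 3 and 0.08 when the array set is fitted. Dbp read 787, 981 and 748 in the controls and 1185, 1335 and 1080.1 with TNBS, a difference of 0.51 ± 0.36. Per3 read 378, 331 and 313 and 440.1, 613 and 409.7, and Nr1d2 2081, 1869 and 1902 and 2663, 2779 and 2153, with differences of 0.48 ± 0.31 and 0.37 ± 0.23. A further Per3 probe set on 430A went the other way, at -0.57 ± 0.28, while the other 4 gave 0.12 to 0.38. Tef and Bhlhe40, the other 2 separated genes, differed by 0.25 ± 0.21 and 0.22 ± 0.16.

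Arntl, the activating partner of Clock, which cycles in antiphase to Dbp and was picked for that after its values were seen, read 303, 295 and 201 and 175, 171 and 253, a difference of -0.39 ± 0.33 in the opposite direction with overlapping groups. The standard-diet replicates of one group spread more widely than this: Dbp read 681, 371 and 1272 in the standard-diet controls. None of these genes passed. The E-box letters CACGTG, which Clock and Arntl bind, searched on both strands of the same windows, stand in 5 of the 17 of these genes that have a window (Per1, Cry1, Tef, Bhlhe41 and Ciart), in 1 of the 4 separated ones that have one, and in 7.15% of all windows. The labels do not give the hour at which tissue was taken, so its part was not tested.

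Proliferation genes leaned downwards. Of 31 cell cycle genes 26 were below 0, and 2 were separated downwards (6.45%, against 3.62% of all genes). The list's median was -0.20 (-0.26 to -0.12 with 1 array left out, 0.27 on the standard diet). It was smaller, at -0.14, when the array set is fitted, and -0.11 from the mean of each gene's probe sets. Rrm1 and Rrm2 are the subunits of ribonucleotide reductase, which makes DNA precursors. Rrm2 read 369.7, 415 and 541 in controls and 377, 337 and 199.6 with TNBS, a difference of -0.54 ± 0.25, and Rrm1 478, 513 and 536 and 406, 476 and 418, a difference of -0.23 ± 0.15. Another 430A probe set of Rrm1 gave 0.01 ± 0.19. Top2a, which untangles replicated DNA, differed by -0.29 ± 0.22. A 430B probe set of Top2a gave 0.56 ± 0.27, the other way, and a dim one on 430A 0.0008 ± 0.19. The proliferation marker Mki67, named after its value was seen, differed by -0.11 ± 0.28. No cell cycle gene passed.

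Wnt target genes of the crypt base were mixed, with a median of -0.03 over 17 genes. Axin2, a feedback inhibitor that reports Wnt activity, read 593, 728 and 503 in controls and 449, 433 and 393 with TNBS, a difference of -0.49 ± 0.21 with separated groups. The other Axin2 probe set on 430A gave 0.84 ± 0.54. Lef1, a Wnt-driven transcription factor, was dim, at 87.4, 60.8 and 35.3 and 14.8, 28.1 and 6.3. Rnf43, an inhibitor of Wnt receptors, differed in the other direction by 1.00 ± 0.50. Immediate early genes had a median of -0.15 over 25, with 19 below 0, and -0.02 without control replicate 3. Jund read 3549.6, 4622 and 2826 and 2985, 2771 and 2229.8, a difference of -0.44 ± 0.18, and Fosl1 235, 214 and 192 and 103, 149 and 171, a difference of -0.57 ± 0.24, with 0.53 ± 0.56 in its other probe set.

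Genes of the differentiated epithelium had medians near that of all genes. Absorptive colonocyte genes had a median of -0.06 over 27, with 18 below 0, and enteroendocrine genes 0.01 over 19. Slc9a3, the sodium-hydrogen exchanger of the colonocyte's apical membrane, read 7477, 6595 and 12637 in controls and 6288, 5689 and 4808 with TNBS. All its TNBS arrays were below the controls, by -0.62 ± 0.22, or by -0.34 without control replicate 3. On the standard diet the order was the reverse, 5095, 5559 and 7107 with control enema and 9126, 9097 and 10066 with TNBS. The interaction of -1.30 ± 0.31 for Slc9a3 did not pass (limma, adjusted p = 0.145). Slc9a2, a related exchanger, differed by -0.57 ± 0.22, with overlapping groups. Both exchangers are from 430B, and by TNBS replicate 1 alone the differences were -0.44 for Slc9a3 and 0.03 for Slc9a2. Another 430B probe set for Slc9a3 gave 0.007 ± 0.19. Slc16a1, the transporter that takes up butyrate, was separated upwards, at 2405, 2458 and 2098 in controls and 2833, 2833 and 2489 with TNBS, a difference of 0.23 ± 0.14; it was chosen after its values were seen. Slc5a8, a second butyrate transporter, differed by 0.29 ± 0.15, with overlapping groups. Goblet and secretory genes had a median of 0.01 over 18, which ran from -0.11 without control replicate 1 to 0.17 without control replicate 3. Galnt12, an enzyme that starts mucin O-glycans, read 6886, 8359 and 13409 in controls and 7545, 5648 and 4191 with TNBS, a difference of -0.70 ± 0.23. Muc2, the gel-forming mucin of the colon, differed by -0.50 ± 0.31, and Clca1, a major goblet cell product, by 0.24 ± 0.15. In all 3 the groups overlapped. Galnt12 and Muc2 are from 430B, and by TNBS replicate 1 alone they differed by -0.28 and -0.08. Control replicate 3 was the highest array for 8 of the 18 goblet genes.

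Detoxification genes, which curcumin and other dietary polyphenols are known to act on, had a median of 0.01 over 45, against -0.39 on the standard diet. Without control replicate 3 it was -0.12, with 35 of 45 genes below 0. Cyp1a1, the classic target of the aryl hydrocarbon receptor, read 73.5, 155 and 78.7 in controls and 116, 151 and 279 with TNBS, a difference of 0.72 ± 0.47. The retinal dehydrogenase Aldh1a1 was the single gene of the list with groups separated upwards (2.22%, against 3.22% of all genes). It read 4482, 4454 and 3895 and 4893, 5131 and 4938, a difference of 0.22 ± 0.11. Nrf2 targets had a median of -0.08 over 32. Akr1b8, an aldose reductase-like enzyme, read 2456, 2899.5 and 2662 and 2218, 2037 and 1856, a difference of -0.39 ± 0.15, while catalase (Cat) differed by 0.42 ± 0.17, with -0.03 ± 0.33 in its other probe set, and Nqo1 by -0.09 ± 0.17. Hmox1, often used to show Nrf2 activity, was dim and scattered, at 8.1, 130.3 and 141 and 76.0, 101 and 39.0.

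Metabolic lists had medians close to that of all genes. Oxidative phosphorylation subunits had a median of -0.09 over 39 genes (0.00 when the array set is fitted). Of the 39 genes, 30 were below 0, against 6330 of all 12393 genes. In either direction 0 of the 39 were separated, against 3.22% upwards and 3.62% downwards of all genes. Proteasome subunits had a median of -0.05 over 31, fatty acid and PPAR genes 0.01 over 32 and cholesterol genes 0.02 over 22. Pdk4, the kinase that shuts off pyruvate oxidation in fasting, read 594, 393 and 599 in controls and 428, 189 and 272 with TNBS, a difference of -0.85 ± 0.36, with overlapping groups. Interferon-induced genes had a median of 0.07 over 23, and the immunoproteasome subunit Psmb8 differed by 0.42 ± 0.23.

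Marker sums of other tissues in the dissected colon overlapped between the groups. The 20 pancreas acinar markers had a median of 1.07, which ran from 0.04 without TNBS replicate 1 to 2.55 without control replicate 3. Of the 20, 0 were separated, against 3.22% upwards and 3.62% downwards of all genes, so few were to be looked for among 20. Adipocyte markers summed to 15299 to 24694 in controls and 17163 to 25280 with TNBS, and smooth muscle markers to 52591 to 67495 in controls and 56140 to 69103 with TNBS. Of the 18 smooth muscle markers 1 was separated, downwards (5.56%, against 3.62% of all genes). It was the myosin kinase Mylk, at 5802, 7227 and 5405 in controls and 5282, 5202 and 4890.4 with TNBS. Other 430A probe sets of Mylk gave -0.14 ± 0.16 and 0.07 ± 0.11. The 16 endothelial markers had a median of 0.06. Neuron and glia markers summed to 5846 to 7021 in the controls and 4909 to 7419 with TNBS. Their part in the differences above was not tested.

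On 430B, 9 probe sets rose with TNBS on the curcumin diet (0.04% of 22511) and 16 fell (0.0711%). Of these, 6 and 12 have a single gene symbol. Without the 2 arrays that stand apart, 0 were called, with 1140 at an unadjusted p under 0.05 and a smallest adjusted p of 0.139; that fit leaves TNBS replicate 1 alone, assumed to vary like the other groups. With a single array left out, the count ran from 1 (without control replicate 2) to 3504 (without TNBS replicate 1, which leaves only the arrays that stand apart). For all 25 probe sets, replicate 1 lay beyond all 3 controls on the same side as replicates 2 and 3. Replicate 1 was part of the test that called them, so this largely follows from the selection. The 100 probe sets that both array types share had median differences from the control mean of -0.21, -0.55 and -0.55 on the TNBS arrays of 430B, while on 430A the same samples gave -0.005, -0.034 and -0.025. The part of this offset in the calls was not tested.

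The largest rise was in a probe set for Fut8, the enzyme that adds core fucose to N-glycans. It read 96.1, 56.4 and 47.2 in the controls and 356, 1111 and 1206 with TNBS, a rise of 3.32 ± 0.48 (limma, adjusted p = 0.0204) and 2.21 by replicate 1 alone. Its other 2 probe sets gave 0.21 on 430A and -1.09 on 430B, and neither passed. Ttc3, a ubiquitin ligase, read 68.5, 45.2 and 74.7 and 399.5, 422 and 365, a rise of 2.40 ± 0.30 (adjusted p = 0.0152) in which replicate 1 was as high as the other 2. All 6 standard-diet arrays, at 451, 347 and 328 and 477, 354 and 311, were at the TNBS level, and the other 6 Ttc3 probe sets differed by -0.30 to 0.17. Nr2e1, a nuclear receptor known from neural stem cells, rose from 18.8, 17.2 and 11.0 to 119, 114 and 96.1 (difference 1.99 ± 0.28), and Nlrp4a and Gm5219 by 2.70 ± 0.47 and 2.61 ± 0.44, all from signals near the bottom of the scale.

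Probe sets that fell began from brighter signals. Ptpn18, a tyrosine phosphatase, read 428, 549 and 595 in the controls and 91.1, 43.5 and 75.2 with TNBS, a difference of -2.68 ± 0.44 (limma, adjusted p = 0.045), while its 430A probe set, at -0.03 ± 0.18, did not differ beyond its error. Rabgap1l, a Rab GTPase-activating protein, read 344, 349 and 299 and 56.6, 40.1 and 32.2, a difference of -2.57 ± 0.45, and its 4 other probe sets gave -0.66 to 0.81. Cyb5d2, a heme-binding protein, read 463, 574 and 418 and 83.2, 84.0 and 65.3, a difference of -2.42 ± 0.31 (adjusted p = 0.0152), with -1.73 ± 0.51 in its other probe set, which did not pass and was at -0.08 by replicate 1 alone. Ppp1r16a, a targeting subunit of protein phosphatase 1, fell too, with a difference of -2.40 ± 0.42, as did the PR domain factor Prdm11, with -2.34 ± 0.41.

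Some called probe sets belong to well-known genes that other probe sets also measure. Mapk14, the stress kinase p38 alpha, read 998, 514 and 899 and 184, 176 and 177 in the called probe set, and its 5 others gave -0.71 to 0.43. Casp9, the initiator caspase of the mitochondrial death pathway, read 1279.5, 1299.7 and 1700.3 and 302, 286 and 292 in the called one, against 0.19 ± 0.25 and 0.16 ± 0.22 in its 430A probe sets. Cpne3, a calcium-dependent membrane-binding protein, fell in 1 probe set, with -2.29 ± 0.33, and gave -0.05, 0.22 and 0.70 in the others. Rab3gap2, Srp72, Zswim3 and Nsrp1 also fell, and Cep41 rose. These 8 were named because they passed, outside the rule for named genes. In 3 of the 25 probe sets the TNBS mean was nearer to the standard-diet control mean than the curcumin control mean was, against 35.9% of all 430B probe sets.

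**Figure D5:**
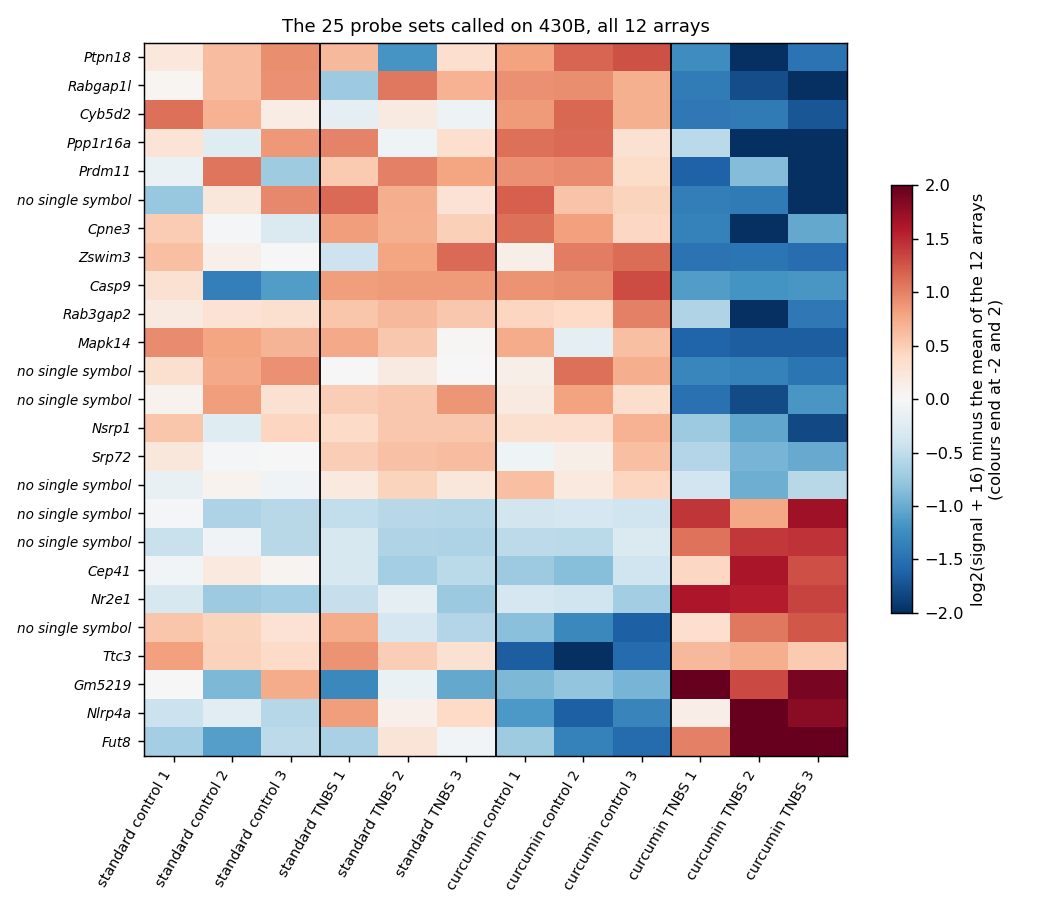
Colour map of the 25 called 430B probe sets over all 12 arrays, as log2(signal + 16) minus the probe set's mean over the 12, with the 16 that fell at the top and the 9 that rose below. The 3 curcumin TNBS columns at the right differ from the curcumin control columns, replicates 2 and 3 mostly further than replicate 1. In some rows, such as Ttc3 and Casp9, standard-diet arrays lie at the TNBS level. For Ttc3, Nlrp4a and 1 row with no symbol the curcumin controls lie below the standard-diet arrays.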

How the data were processed

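Labelled RNA of 12 numbered samples was hybridised to 430A and 430B arrays. Each deposited value is a probe set's intensity, not on a log scale; the submitters' processing notes name GCOS, Affymetrix's array software, as the authors' tool. Trimmed by 2% at each end, every array averages close to 500, and the values were used as deposited. Arrays carry no read depth: their number limits the precision.

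After leaving out 64 control probe sets per type, log2(signal + 16) was fitted with limma 3.58.1 in R 4.3.3, a mean per group over the 12 arrays of a type (8 residual degrees of freedom) and a trend on intensity. The fit was tested on simulated data. Symbols come from the platform annotation: on 430A 20380 probe sets have 1, 691 several and 1555 none, on 430B 14661, 245 and 7605. Of 767 listed genes in 31 lists, 708 are on the arrays. Lists are described by counts and medians, with no set test. Alternatives changed the pseudocount, filter, scaling, trend, weights, threshold, array set term and arrays included. Promoters are RefSeq windows.

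The comparison, the lists and the alternatives were chosen with earlier results of these data known. Named genes are the 12 separated 430A genes per direction with the smallest p and a mean over 200 (none passed), up to 3 members per list with the smallest p, 21 inflammation and curcumin response genes whatever their p, and up to 5 called 430B genes per direction. Other names were chosen after values were seen, as stated there.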

Additional observations from a re-analysis of the deposited data

Results flagged for a closer look

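The response to TNBS differed between the diets, by the test of the interaction on 430B (difference on curcumin minus difference on the standard diet; limma, adjusted p under 0.05), for 4 genes. The interaction was -6.83 for Clca4b, -3.78 for Casp9, -3.10 for Rhbdf2 and -2.27 for Tmem181a. In all 4 the signal was lower with TNBS on the curcumin diet and higher with TNBS on the standard diet. Taken alone, the difference on the curcumin diet passed only for Casp9, and that on the standard diet only for Clca4b. With each of the 12 arrays left out in turn, Clca4b and Rhbdf2 passed in 12 of 12, Casp9 in 11 and Tmem181a in 3. Without both arrays that stand apart none passed, and the interactions were -7.28, -3.74, -2.91 and -1.69. For Casp9 the 430A probe sets gave differences on the curcumin diet of 0.19 and 0.16, against -2.21 ± 0.32 in the 430B one.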

How the results depend on the processing

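On 430A the comparison gave 0 calls in every alternative tried, of which the stricter threshold and the minimum fold could not have added any. On 430B, the 25 calls became 9 with no pseudocount, 14 with a pseudocount of 64, 55 and 8 with filters at the 40th and 60th percentile of mean signal, 3495 with array weights, 1 from the 6 arrays of the 2 groups alone, 0 at an adjusted p under 0.01, and 0 without the 2 arrays that stand apart. With 1 array left out, the count ran from 1 (without curcumin control replicate 2) to 3504 (without curcumin TNBS replicate 1, which leaves only the 2 arrays that stand apart). It was 45 and 2 without control replicates 1 and 3, 15 and 6 without TNBS replicates 2 and 3, 16, 16 and 12 without standard-diet control replicates 1, 2 and 3, and 16 and 3 without standard-diet TNBS replicates 2 and 3.

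The interaction on 430A had 0 calls, but 1265 with array weights, 1 and 2 without curcumin control replicates 1 and 3, and 6 without control replicate 3 when array set is also fitted. On 430B its 4 calls became 9 and 8 with filters at the 40th and 60th percentile, 7 with quantile normalization, 0 with no trend, 1444 with array weights and 0 without the 2 arrays that stand apart, and ran from 2 (without control replicate 3) to 1467 (without TNBS replicate 1), with 21 without control replicate 1. The causes were not tested, beyond fewer probe sets tested under a filter. The interaction's alternatives other than the array set, the filter at the 40th percentile (both 430A) and the 2 arrays, and the list medians with no pseudocount or median centring, were chosen after seeing the data. The 10 called 430B genes that the naming rule takes kept their direction in the alternatives run; the other called ones were not run. No paired analysis was possible because the labels number the samples across groups without a shared number. Signals near the bottom of the scale limit the dim genes.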
